A study of Rattus norvegicus with 14 samples.

Results

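Collagens other than type IV were followed across 7 rat cell lines on 14 one-colour Agilent arrays. All non-control probes whose gene name in the scanner files is that of a collagen chain were taken, and the type IV chains were left out. This gave 28 genes with 43 probes, of 41012 probes on each array. Of the 28 genes, 25 passed the filter for signal above background, and they belong to 24868 gene names that passed it in the whole series. The blastocyst lines were Fi1 (Fischer, male), Fi2 (Fischer, female) and Wk8 (Wistar-Kyoto, female). The bone marrow lines were CL19 (Fischer, female), 3C3 (Fischer, male) and RMAPC-1 (Fischer, male). These 6 stem cell lines are described by the submitters as hypoblast stem cells, cells with features of the extraembryonic layer that borders the early embryo, and the series concerns the culture condition used for multipotent adult progenitor cells (MAPC). RClone-2 (Fischer, male) was the control, a single mesenchymal line. No genetic change, treatment, passage or age is given for any line, and each line was measured on an array A and an array B. Whether A and B came from separate cultures is not stated, so the line was the unit of replication, and p-values measure the spread between lines only.

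Collagen molecules are triple helices of alpha chains, and the chains fall into families by the structures they build. Fibril-forming chains (types I, II, III, V, XI, XXIV and XXVII) make the banded fibres of connective tissue, and type V chains sit inside type I fibrils and control their diameter. Fibril-associated chains with interrupted helices (types IX, XII, XIV, XVI, XX and XXII) coat or bridge fibrils, type VI chains make beaded filaments, type VII anchors epithelium to the underlying stroma, types VIII and X make hexagonal networks, type XXIII spans the cell membrane, and types XV and XVIII lie in basement membrane zones. Fibroblasts and other mesenchymal cells are the main makers of fibril-forming collagen, whereas cells of the parietal endoderm, which derive from the hypoblast, lay down a thick basement membrane rich in type IV collagen and laminin.

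All levels below are log2 processed signals minus the 75th percentile of the same array, so that 0 is the 75th percentile, and a level tells nothing about another probe's level. The dimmest probe called well above background had a level of -6.66 to -5.80, depending on the array, and 61.7% to 68.0% of probes were well above background. A level below this range carries no order. A difference is a mean over lines minus another, given with its standard error (SE), and was tested with limma across all 24868 gene names with Benjamini-Hochberg adjustment and a threshold of 0.05. RClone-2 is 1 line, so its own spread is unknown and the fit assumes that it varies like the other lines. A fold given as "at least" is against the dimmest detected signal, because one side was not well above background. It is an approximate bound and no strict limit. Some probes brighter than that signal were not called well above background, and the fold changes with the background correction. In bulk RNA, fewer cells of a type and less RNA per cell cannot be told apart. Wk8 lay at an end of the 6 stem cell lines in 16 of the 25 genes (highest in 10, lowest in 6), or 64.0%, against 48.6% of all genes tested. The marker list for mesenchymal stromal cells or fibroblasts fell in all 8 of its tested genes in the stem cell lines, against 22.5% of all genes. Its summed signal, on a linear scale with the 75th percentile as 1, was 14.1 to 43 in the stem cell lines and 1010 in RClone-2. The sum rested mainly on the brightest probes. These were S100a4 (log2 level 9.11) and Vim (8.73) in RClone-2, and Vim (3.80 to 5.42) in the stem cell lines. Thy1, Prrx1 and Postn of this list were not well above background on any of the 12 stem cell arrays, and Pdgfrb was on only 1. These genes passed the filter only through RClone-2, so their fall was in part set by the filter. The part of these markers in the collagen differences was not tested.

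The stem cell lines had far lower levels of most of these collagens than the mesenchymal line. Of the 25 genes, 22 passed the test (limma, adjusted p under 0.05), where 47.2% of all genes did. Lower in the stem cell lines were 18, against 22.5% of all genes, and 4 were higher, against 24.7% of all genes. Of the lower genes, Col3a1, Col5a2, Col12a1 and Col27a1 passed the filter only through RClone-2. Their lower stem cell signal was thus in part set by the filter. Of the higher genes, Col8a2, Col9a3 and Col22a1 passed it only through stem cell lines, so their higher signal there was in part set by it too. The median difference of the 25 genes was -4.07, while that of all genes was 0.03. With the normexp background correction the median of the 25 genes was -2.27, and 1 gene was higher and 15 were lower, where 23.5% of all genes were called. With the 5 genes that have only a bound set at that bound, the median was -3.97. Scaling by the spiked-in transcripts moved the median of all genes to -0.47, and 3 genes were then higher and 19 lower. The 18 lower genes were Col1a1, Col1a2, Col2a1, Col3a1, Col5a1, Col5a2, Col5a3, Col6a1, Col6a2, Col7a1, Col8a1, Col12a1, Col15a1, Col16a1, Col18a1, Col20a1, Col23a1 and Col27a1. The 4 higher genes were Col8a2, Col9a2, Col9a3 and Col22a1. Col9a1, Col10a1 and Col11a2 did not pass. On all 12 stem cell arrays, 18 genes lay below both RClone-2 arrays and 2 (Col9a2 and Col9a3) lay above both, and the arrays overlapped in the remaining 5. Of all genes tested, 49.2% had no overlap. Col11a1, Col14a1 and Col24a1 were not well above background on any of the 14 arrays and were not tested.

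**Figure D1:**
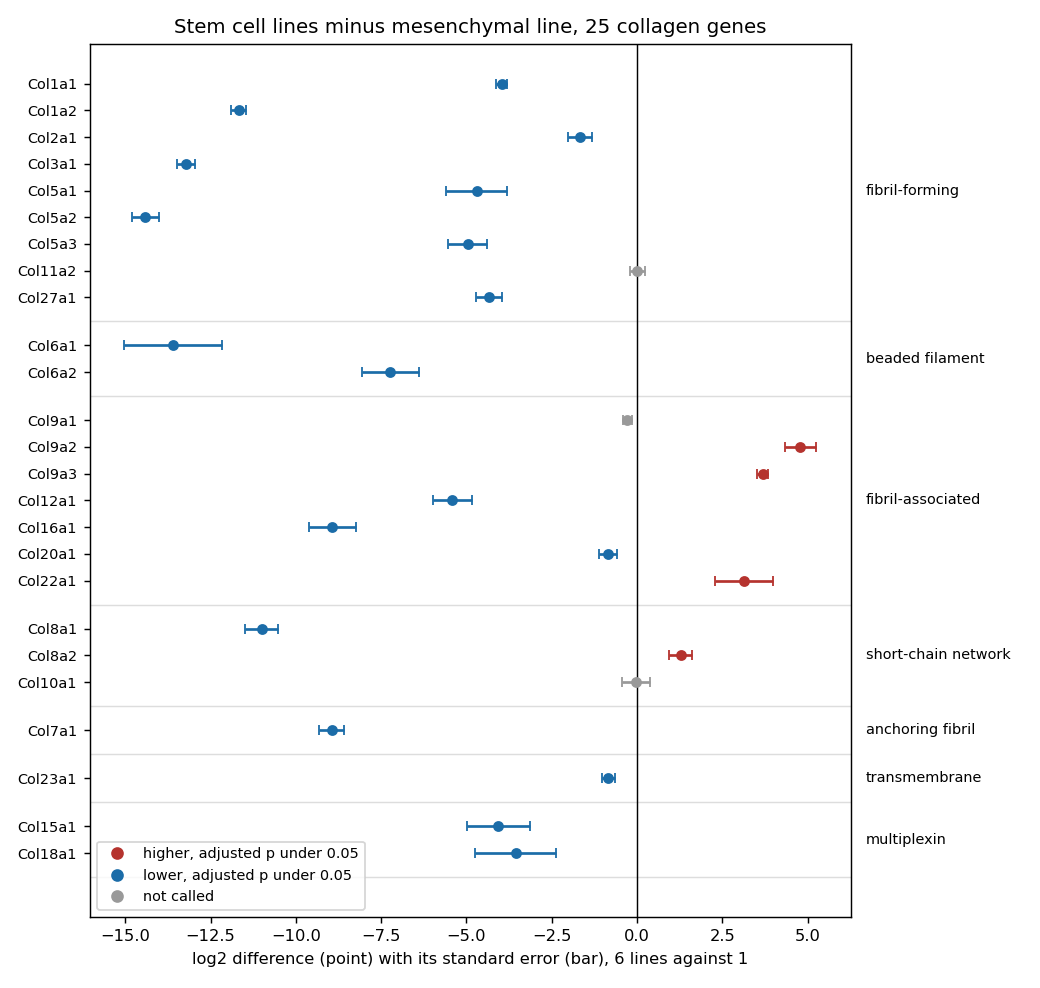
Log2 difference of each of the 25 collagen genes, 6 stem cell lines minus 1 mesenchymal line (x axis, point, with the standard error as a bar), in rows by structural family. Most points lie left of 0, down to -14.41 for Col5a2, and Col9a2, Col9a3, Col22a1 and Col8a2 lie to the right.

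Fibril-forming chains were almost all lower in the stem cell lines. Of 9 tested, 8 fell, against 22.5% of all genes, and none rose. The median difference was -4.70, also with Col5a2 at its bound. Col3a1, Col5a2 and Col27a1 passed the filter only through RClone-2. Col1a2 encodes the alpha-2 chain of type I collagen, the main fibril of bone, tendon and skin, and its probe lies at chr4:29428206-29428265 of rn4. Col1a2 had levels of -2.99 and -3.05 in Fi1, -3.40 and -3.49 in Fi2, -3.50 and -3.55 in Wk8, -3.69 and -3.76 in CL19, -4.03 and -3.86 in 3C3 and -3.74 and -4.09 in RMAPC-1, against 8.24 and 7.90 in RClone-2. The paired arrays of each line read nearly alike, and no stem cell array came near RClone-2. The difference of Col1a2 was -11.67 ± 0.22, a 3258-fold lower signal (adjusted p = 1.37e-06), and its other probe gave -11.64. Col3a1, whose chain forms type III fibrils in elastic and healing tissues, had levels of -6.93 and -7.50 in Fi1, -7.13 and -7.02 in Fi2, -7.68 and -6.41 in Wk8, -7.64 and -5.68 in CL19, -6.40 and -7.79 in 3C3 and -6.25 and -6.65 in RMAPC-1, against 6.66 and 5.93 in RClone-2. Only 1 of the 12 stem cell arrays was well above background for Col3a1. The difference of Col3a1 was -13.22 ± 0.25 (adjusted p = 1.36e-06), and -13.72 to -9.31 over the alternative settings. The blastocyst lines, not well above background on any array, were at least 6650-fold lower than RClone-2. Over the alternatives their log2 difference from RClone-2 was -14.04 to -9.36.

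Col5a2, the alpha-2 chain of type V collagen, had levels of -6.63 and -8.19 in Fi1, -7.90 and -8.56 in Fi2, -8.23 and -8.74 in Wk8, -7.20 and -8.52 in CL19, -7.96 and -7.82 in 3C3 and -8.07 and -8.25 in RMAPC-1, against 6.55 and 6.25 in RClone-2. None of the 12 stem cell arrays was well above background. The drop was at least 6394-fold, with a difference of -14.41 ± 0.39 (adjusted p = 3.03e-06). Over the alternative settings the difference was -14.91 to -9.63, so the size of the fold depends on the processing. The other 2 Col5a2 probes gave -14.26 and -14.54. In the RefSeq gene order of the rat assembly GRCr8, Col3a1 and Col5a2 are neighbours with 0 protein-coding genes between them.

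**Figure D2:**
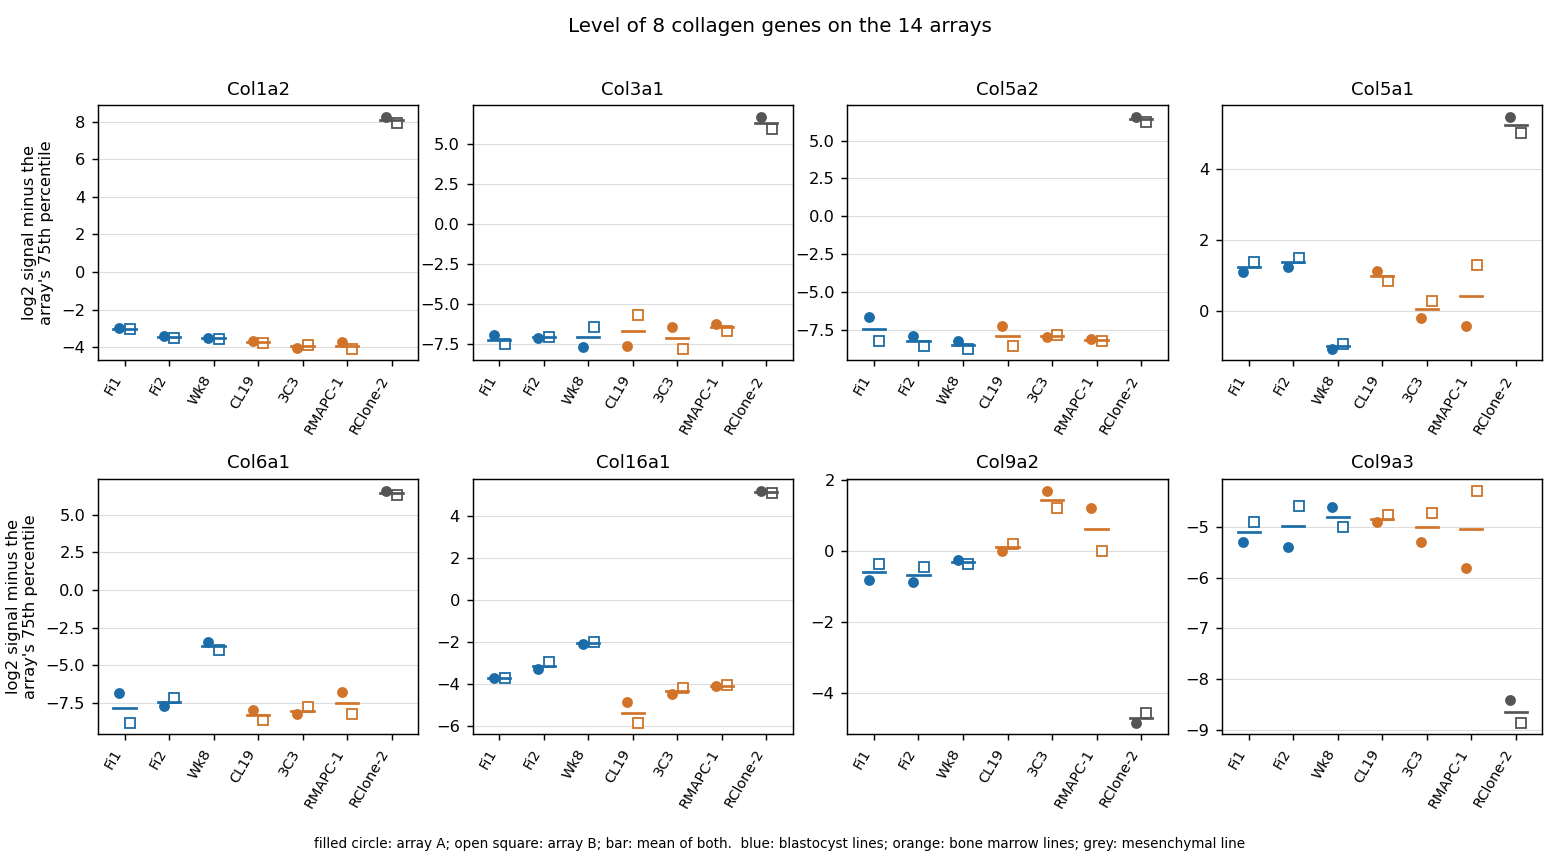
Levels of 8 collagen genes (y axis, log2 signal minus the array's 75th percentile, a separate scale per gene) on array A (filled circle) and array B (open square) of each line, with the mean as a bar. RClone-2 stands far above the other lines in Col1a2, Col3a1, Col5a2, Col5a1, Col6a1 and Col16a1 and below them in Col9a2 and Col9a3.

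Col1a1, the alpha-1 chain of type I collagen, showed a smaller difference on its brightest probe than Col1a2, its partner in the type I molecule, and its 3 probes disagreed in size. On the brightest probe, Col1a1 had levels of -0.85 and -0.96 in Fi1, -0.78 and -0.89 in Fi2, -1.06 and -1.01 in Wk8, -0.15 and 0.01 in CL19, 0.18 and -0.09 in 3C3 and 0.17 and -0.20 in RMAPC-1, against 3.87 and 3.14 in RClone-2. All 14 arrays were well above background. This was a difference of -3.97 ± 0.15, or 15.7-fold lower (adjusted p = 9.47e-06). The second probe, which overlaps the first by 7 bases of the rn4 sequence, gave -5.86. The third begins 161 bases past the end of the second, at chr10:83638177-83638236, and gave -13.12. On the third probe 3 of the 12 stem cell arrays were well above background. Its levels were -8.18 to -5.39 in the stem cell lines, against 6.88 and 6.17 in RClone-2. All 3 probes put the stem cell lines lower, but the size of the Col1a1 difference rests on the probe.

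The sequences of the first 2 Col1a1 probes are shown beside those of Col3a1 and Col5a2, because they share letters. The capitals mark the longest run that a probe shares with a probe of another gene in this set.
Col1a1, first probe, chr10:83637903-83637962, plus strand: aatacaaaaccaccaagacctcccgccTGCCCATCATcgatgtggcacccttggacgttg
Col1a1, second probe, chr10:83637956-83638015, plus strand: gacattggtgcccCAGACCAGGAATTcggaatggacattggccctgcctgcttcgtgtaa
Col3a1, chr9:44317465-44317524, plus strand: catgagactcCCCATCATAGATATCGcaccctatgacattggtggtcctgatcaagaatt
Col5a2, another probe, chr9:44375560-44375619, minus strand: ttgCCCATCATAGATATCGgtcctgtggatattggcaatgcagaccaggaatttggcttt
The Col3a1 and Col5a2 probes share a run of 16 of their 60 bases. The second Col1a1 probe shares 13 bases with Col5a2 and the first shares 10. Over the 886 pairs of member probes of different genes, the median longest shared run was 6 bases, and 2 pairs, these with 16 and 13, reached 13. In the overlap of the first and second Col1a1 probes, 6 of 7 letters match. The part of shared letters in these signals was not tested. The Col5a2 probe used in the fit is not in this set, and its difference and that of the probe shown were -14.41 and -14.54.

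**Figure D3:**
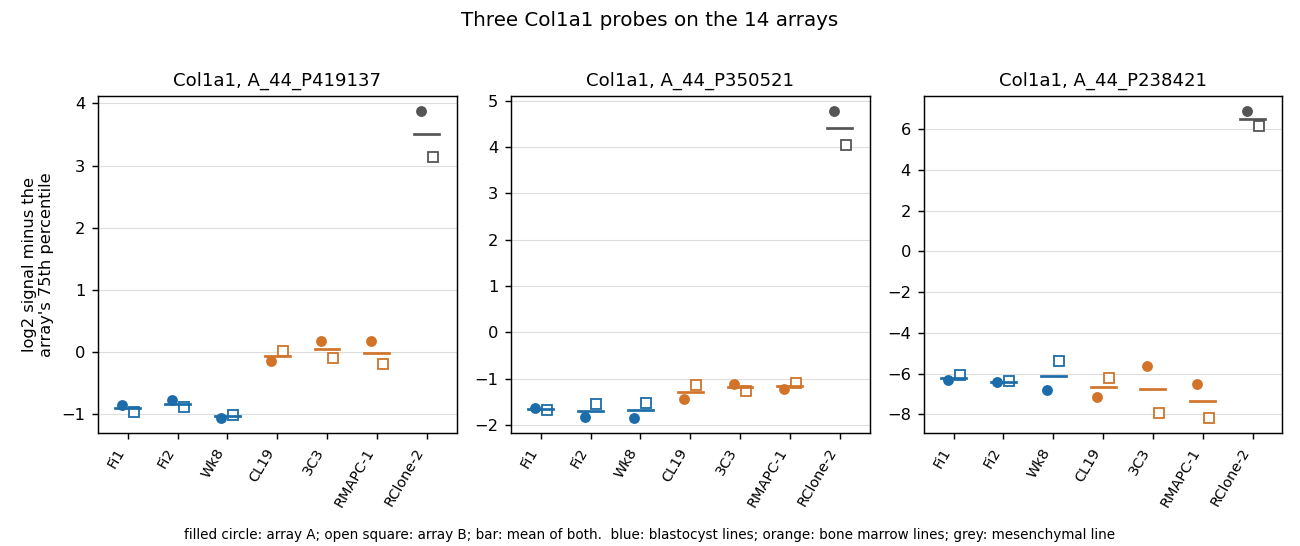
Level of the 3 Col1a1 probes (y axis, log2 signal minus the array's 75th percentile, a separate scale per probe) on arrays A and B of each line. RClone-2 is the highest line on each probe, with a difference of -3.97, -5.86 and -13.12 from left to right, and the bone marrow lines lie above the blastocyst lines on the first 2 probes.

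The remaining type V chains stayed well above background in every line. Col5a1 had levels of 1.10 and 1.38 in Fi1, 1.25 and 1.51 in Fi2, -1.05 and -0.91 in Wk8, 1.14 and 0.86 in CL19, -0.18 and 0.30 in 3C3 and -0.40 and 1.29 in RMAPC-1, against 5.45 and 5.0 in RClone-2. Wk8 was the lowest of the stem cell lines, and the 2 RMAPC-1 arrays lay far apart. Col5a1 was 26.0-fold lower in the stem cell lines (-4.70 ± 0.89, adjusted p = 0.00689), and its second probe gave -3.95. Col5a3, a type V chain of narrower tissue range, had levels of -2.24 and -1.94 in Fi1, -0.76 and -0.68 in Fi2, -2.17 and -2.42 in Wk8, 1.01 and 0.85 in CL19, 1.23 and 0.61 in 3C3 and 1.74 and 0.88 in RMAPC-1, against 4.80 and 4.47 in RClone-2. The lines fell into 3 levels without overlap, with the blastocyst lines lowest and RClone-2 highest. Col5a3 was 31.0-fold lower in the stem cell lines as a whole (-4.96 ± 0.57, adjusted p = 0.000953). Among the dimmer fibril-forming genes, Col27a1 fell by 4.34 and Col2a1, the cartilage fibril chain, fell by 1.66 on the log2 scale, with 4 and 5 of 12 stem cell arrays well above background. Col11a2 did not pass (0.01 ± 0.22, adjusted p = 0.978). Col11a1, the chain that starts thin cartilage fibrils, had levels of -8.71 to -7.83 in the stem cell lines, against -8.20 and -8.67 in RClone-2, all at background.

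Both measured type VI chains, whose genes are neighbours in the GRCr8 order, fell in the stem cell lines. Col6a1 had levels of -6.84 and -8.81 in Fi1, -7.71 and -7.17 in Fi2, -3.48 and -3.96 in Wk8, -7.95 and -8.60 in CL19, -8.26 and -7.80 in 3C3 and -6.78 and -8.26 in RMAPC-1, against 6.59 and 6.32 in RClone-2. The Wk8 arrays were the only 2 of 12 stem cell arrays well above background for Col6a1. Its difference was -13.59 ± 1.44 (adjusted p = 0.000695), and without Wk8 it was -14.24 ± 0.32. Against RClone-2, the bone marrow lines were at least 5774-fold lower. Over the alternative settings the Col6a1 difference was -14.24 to -9.58 for all stem cell lines and -14.77 to -9.75 for the bone marrow lines. Col6a2 had levels of -4.77 to -2.25 in the stem cell lines with a median of -4.34, against 3.4 and 3.1 in RClone-2, a 150-fold lower signal (-7.23 ± 0.84, adjusted p = 0.00102).

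Wk8 stood apart in both type VI chains. Its Col6a2 arrays read -2.27 and -2.25, while the other 5 stem cell lines had line means of -4.62 to -4.01. Wk8 was also the highest stem cell line in Col15a1, a chain of basement membrane zones, with -2.48 and -2.52, while the others had line means of -5.16 to -4.69. It was the highest in Col16a1 and the lowest in Col18a1 and Col5a1. Wk8 is the only Wistar-Kyoto line, so the line and the strain cannot be told apart. Leaving out Wk8 kept the type VI and type XV differences, with -7.61 ± 0.19 for Col6a2 and -4.48 ± 0.23 for Col15a1.

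**Figure D4:**
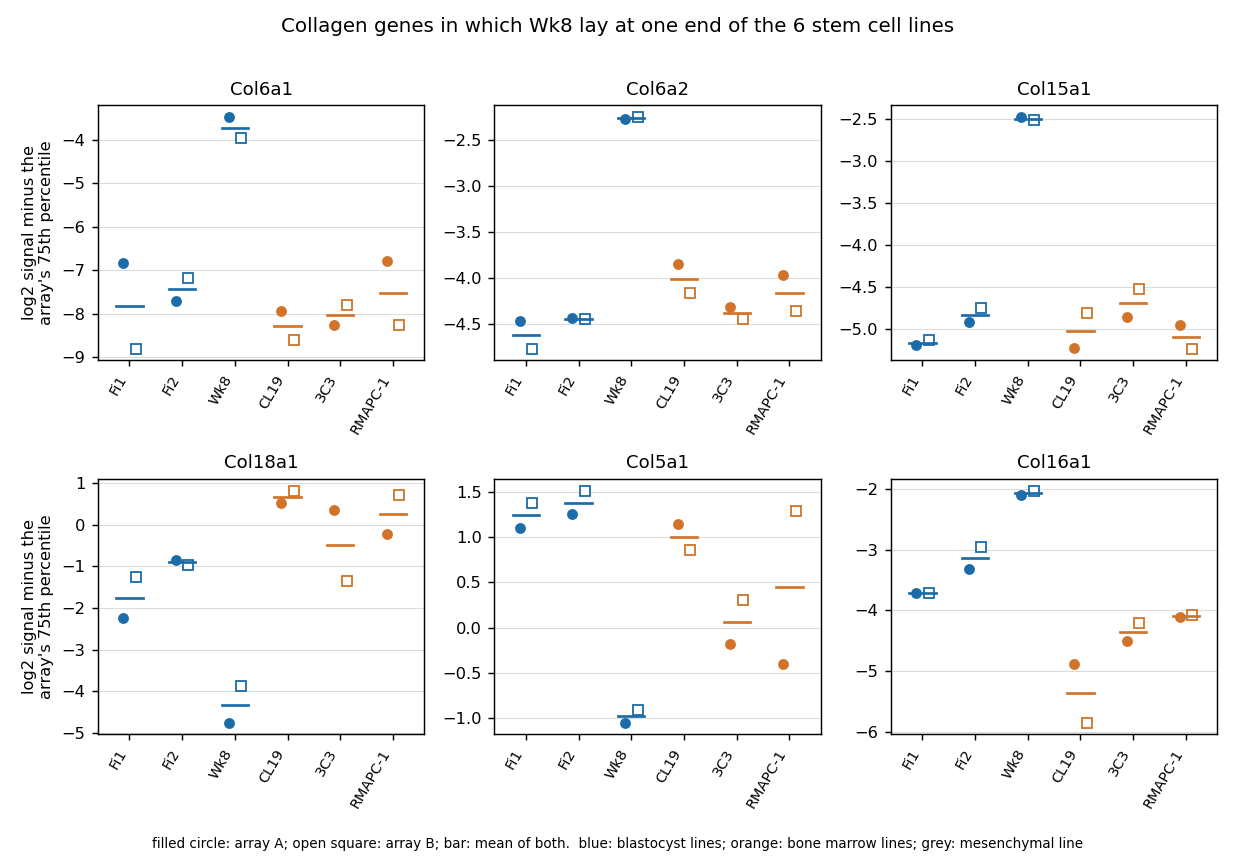
Levels of 6 collagen genes on arrays A (filled circle) and B (open square) of the 6 stem cell lines (y axis, log2 signal minus the array's 75th percentile, a separate scale per gene), with the mean as a bar. Wk8 is the highest line in Col6a1, Col6a2, Col15a1 and Col16a1 and the lowest in Col18a1 and Col5a1.

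Fibril-associated chains moved in both directions. Of 7 tested, 3 were lower in the stem cell lines (Col12a1, Col16a1 and Col20a1), against 22.5% of all genes. Another 3 were higher (Col9a2, Col9a3 and Col22a1), against 24.7%. Col12a1 passed the filter only through RClone-2, and Col9a3 and Col22a1 only through stem cell lines. Col16a1, a chain found around fibrils and near basement membranes, had levels of -3.72 and -3.72 in Fi1, -3.31 and -2.96 in Fi2, -2.09 and -2.03 in Wk8, -4.88 and -5.85 in CL19, -4.50 and -4.20 in 3C3 and -4.11 and -4.07 in RMAPC-1, against 5.19 and 5.10 in RClone-2. Every stem cell array was well above background, and the signal was 488-fold lower (-8.93 ± 0.69, adjusted p = 0.000188), with -8.55 on the second probe. Col12a1, which decorates type I fibrils in dense tissue, was not well above background on any stem cell array and was at least 11.9-fold lower (-5.41 ± 0.57, adjusted p = 0.00069). Col20a1 differed by -0.86 ± 0.26 (adjusted p = 0.0384).

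Type IX collagen, known from the surface of cartilage fibrils, is built from the chains of Col9a1, Col9a2 and Col9a3, and these genes did not move together. Col9a2 had levels of -0.82 and -0.37 in Fi1, -0.88 and -0.44 in Fi2, -0.25 and -0.37 in Wk8, 0.01 and 0.21 in CL19, 1.70 and 1.21 in 3C3 and 1.23 and 0.02 in RMAPC-1, against -4.83 and -4.55 in RClone-2. Every stem cell array lay above RClone-2, and Col9a2 was 27.7-fold higher in the stem cell lines (4.79 ± 0.46, adjusted p = 0.000459). Col9a3 had levels of -5.30 and -4.91 in Fi1, -5.40 and -4.58 in Fi2, -4.61 and -5.00 in Wk8, -4.90 and -4.77 in CL19, -5.29 and -4.73 in 3C3 and -5.81 and -4.29 in RMAPC-1, against -8.42 and -8.86 in RClone-2. The 12 stem cell arrays were above background and the RClone-2 arrays were not, so the fold is at least 2.58 (3.68 ± 0.17, adjusted p = 2.5e-05). With the normexp background correction, the difference was 0.53 and did not pass (adjusted p = 0.366). Col9a1 had levels of -3.01 and -2.89 in Fi1, -3.13 and -2.85 in Fi2, -3.09 and -2.74 in Wk8, -2.60 and -2.58 in CL19, -2.34 and -2.49 in 3C3 and -2.35 and -2.58 in RMAPC-1, against -2.34 and -2.54 in RClone-2. Its groups overlapped, with a difference of -0.28 ± 0.14 (adjusted p = 0.149), but its second probe gave -3.69.

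Col22a1, a chain of tissue junctions such as the muscle and tendon border, had levels of -2.24 and -1.80 in Fi1, -3.78 and -3.30 in Fi2, -1.43 and -0.93 in Wk8, -4.68 and -6.49 in CL19, -5.35 and -4.09 in 3C3 and -5.16 and -3.68 in RMAPC-1, against -6.24 and -7.19 in RClone-2. On 11 of 12 stem cell arrays it was well above background and on neither RClone-2 array, so the fold is at least 6.74 (3.14 ± 0.85, adjusted p = 0.0256). The call was lost without Fi1, without 3C3, without all A arrays and with normexp, with an adjusted p of up to 0.0836. Of the chondrocyte marker list, 5 of 6 genes had a probe and 2 were tested, Comp (at least 96.0-fold higher in the stem cell lines) and Sox9 (-0.98 ± 0.29, lower). Comp passed the filter only through stem cell lines. The summed signal of these 2 markers was 0.975 to 1.55 in the stem cell lines and 0.109 in RClone-2. Its part in the type IX differences was not tested.

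Among the other families, Col7a1, the chain of anchoring fibrils, had levels of -6.49 and -5.90 in Fi1, -5.80 and -5.41 in Fi2, -5.35 and -5.26 in Wk8, -6.10 and -5.42 in CL19, -5.46 and -5.67 in 3C3 and -5.02 and -7.20 in RMAPC-1, against 3.08 and 3.30 in RClone-2. It was above background on 9 of 12 stem cell arrays and 495-fold lower there (-8.95 ± 0.36, adjusted p = 1.22e-05). Col8a1 had levels of -6.56 and -6.23 in Fi1, -6.28 and -5.69 in Fi2, -7.43 and -6.13 in Wk8, -5.25 and -5.46 in CL19, -6.82 and -6.39 in 3C3 and -5.83 and -5.86 in RMAPC-1, against 4.81 and 4.86 in RClone-2. Only 5 of 12 stem cell arrays were above background for Col8a1. Its difference was -11.00 ± 0.48 (adjusted p = 1.83e-05), and -7.84 with normexp. Col8a2, the partner chain of Col8a1 in type VIII collagen, moved the other way.

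Col8a2 had levels of -5.70 and -5.60 in Fi1, -6.22 and -5.23 in Fi2, -4.95 and -4.83 in Wk8, -5.60 and -5.46 in CL19, -5.44 and -6.13 in 3C3 and -5.47 and -6.44 in RMAPC-1, against -6.31 and -7.43 in RClone-2. One RMAPC-1 array lay below one RClone-2 array, and 8 of 12 stem cell arrays were above background, so the fold is at least 1.67 (1.28 ± 0.34, adjusted p = 0.0247). This call was lost under 6 of 23 alternative settings. Both multiplexin genes fell: the difference was -4.07 ± 0.92 (adjusted p = 0.0138) for Col15a1 and -3.56 ± 1.18 (adjusted p = 0.0495) for Col18a1, which also encodes the fragment endostatin. Col18a1 had its lowest stem cell level, -4.75, in Wk8 and its highest, 0.81, in CL19. Col23a1, a transmembrane chain, had levels of -5.39 and -5.82 in Fi1, -5.17 and -5.83 in Fi2, -5.13 and -5.23 in Wk8, -4.62 and -4.84 in CL19, -5.06 and -4.65 in 3C3 and -4.85 and -4.83 in RMAPC-1, against -4.37 and -4.20 in RClone-2. All of its stem cell arrays lay below RClone-2, by 0.84 ± 0.19 in the mean (adjusted p = 0.0142). Col10a1, the chain of hypertrophic cartilage, did not pass (-0.03 ± 0.41, adjusted p = 0.952).

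Taken by origin, the blastocyst lines against RClone-2 gave 23 of 25 genes called, where 48.7% of all genes were. Lower were 19 genes, against 26.4% of all genes, and higher 4, against 22.3%. The bone marrow lines against RClone-2 gave 18 genes called, where 46.2% of all genes were, with 15 lower against 19.5% of all genes and 3 higher against 26.8%. Both comparisons use the same RClone-2 arrays. Not called in the bone marrow lines were Col9a1, Col10a1, Col11a2, Col18a1, Col20a1, Col22a1 and Col23a1. The bone marrow lines 3C3 and RMAPC-1 shared slides with RClone-2, and within those slides 20 of the 25 genes were called, where 35% of all genes were. The differences there were -12.00 ± 0.17 for Col1a2, -14.43 ± 0.22 for Col5a2 and 5.73 ± 0.46 for Col9a2. The blastocyst lines shared no slide with RClone-2, so for them slide and origin cannot be told apart except through CL19.

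Between the blastocyst and bone marrow lines the collagens differed less. Of 25 genes, 7 passed, or 28.0%, which is near the 32.8% of all genes. Lower in the blastocyst lines were 6 (Col1a1, Col5a3, Col9a1, Col9a2, Col11a2 and Col23a1), against 24.6% of all genes, and 1 was higher (Col22a1), against 8.25%. This split varied with the scaling. Quantile normalisation gave 2 higher and 5 lower, where 23.1% of all genes were called. A percentile taken over commonly detected probes gave 2 and 3 (24.4% of all genes), and no scaling 5 and 2 (28.7%). Scaling by the spiked-in transcripts gave 2 higher and 7 lower (39.1%). The median difference of the 25 genes was 0.00, while that of all genes was -0.22. Col5a3 had the largest called difference and was 6.75-fold lower in the blastocyst lines (-2.75 ± 0.43, adjusted p = 0.00998, 3 lines against 3), and its groups did not overlap. Col1a1 was lower by 1.88-fold on its brightest probe (-0.91 ± 0.11, adjusted p = 0.00652), and its second probe gave -0.46. The third probe went the other way at 0.70 (limma over probes, adjusted p = 0.047). It was above background on only 2 of 6 blastocyst and 1 of 6 bone marrow arrays, so its levels give no order. The Col1a1 call was lost in 4 of 24 alternatives, among them the mean of its probes. Col9a2 was 2.38-fold lower in the blastocyst lines (-1.25 ± 0.35, adjusted p = 0.039), a call lost in 14 of 24 alternatives, over which the difference was -1.63 to -0.63. Col22a1 was 6.33-fold higher (2.66 ± 0.64, adjusted p = 0.0275), a call lost in 8 of 24.

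Smaller differences were called for 3 further genes. Col11a2 had levels of -5.17 and -5.39 in Fi1, -5.61 and -5.93 in Fi2 and -5.35 and -5.37 in Wk8, against -4.09 and -5.00 in CL19, -4.61 and -4.96 in 3C3 and -3.96 and -5.33 in RMAPC-1, with -5.36 and -4.79 in RClone-2. Its arrays overlapped slightly, and the difference was -0.81 ± 0.17 (adjusted p = 0.0189). This call was lost in 10 of 24 alternatives, with differences of -1.15 to -0.15 and an adjusted p of up to 0.922. Col23a1 differed by -0.62 ± 0.14 (adjusted p = 0.0253), while its second probe, above background on 4 of 6 blastocyst and 0 of 6 bone marrow arrays, gave 1.63. Col9a1 differed by -0.46 ± 0.11 (adjusted p = 0.0248) but by 0.02 without scaling. Their calls were lost, or turned, in 15 and 12 of 24 alternatives. Col16a1, with no overlap between arrays of the 2 origins, missed the threshold at 1.63 ± 0.52 (adjusted p = 0.0573). So did Col1a2 at 0.53 ± 0.17 (adjusted p = 0.0586) and Col18a1 at -2.46 ± 0.89 (adjusted p = 0.0801). The second Col1a2 probe gave -0.63 (limma over probes, adjusted p = 0.0269). That probe was well above background on only 2 of 6 blastocyst and 4 of 6 bone marrow arrays. Only CL19 of the bone marrow lines shared slides with the blastocyst lines. Against CL19 alone, limma called 0 of the 25 genes and 0 of all 24868. At an unadjusted p under 0.05 were 6 of the 25, or 24.0%, against 21.2% of all genes. The differences against CL19 were -2.63 ± 0.73 for Col5a3, -0.85 ± 0.19 for Col1a1, 3.33 ± 1.01 for Col22a1 and -0.63 ± 0.23 for Col9a2.

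**Figure D5:**
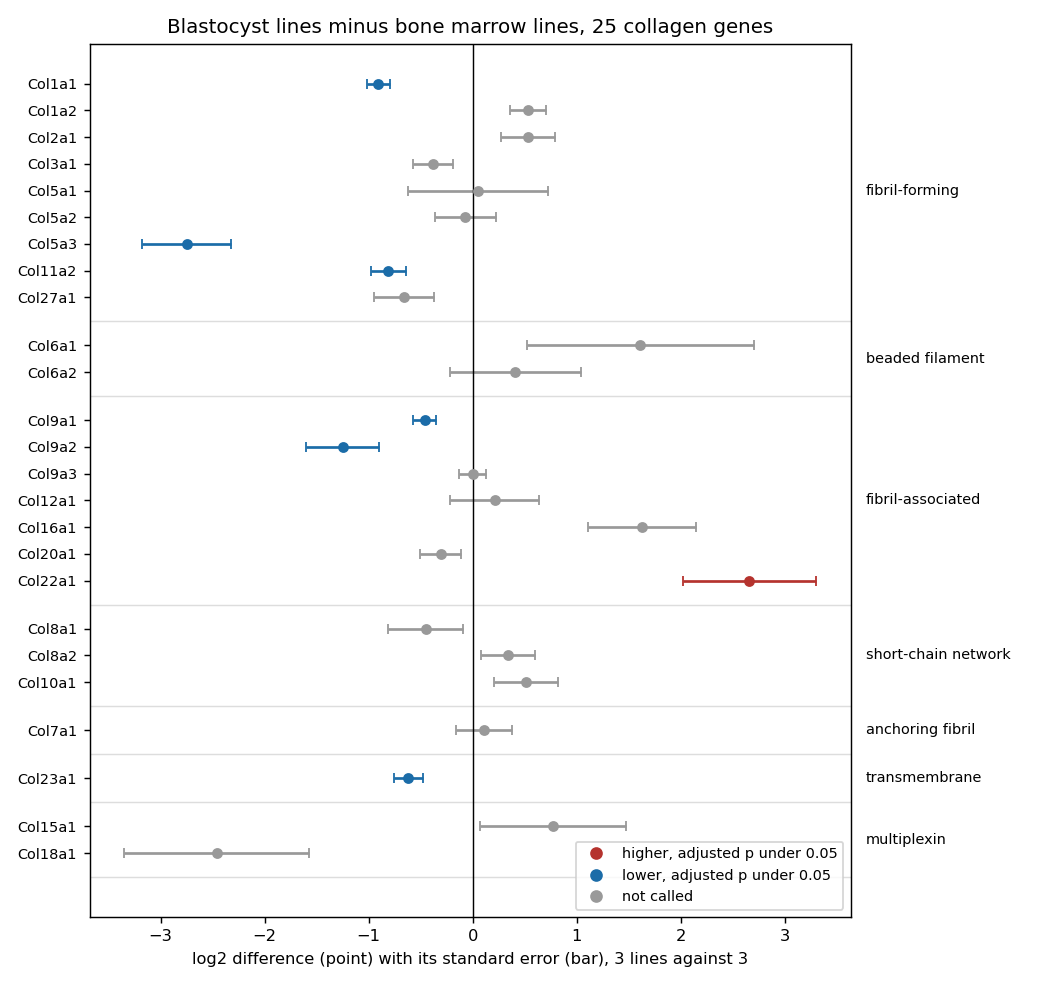
Log2 difference of each of the 25 collagen genes, 3 blastocyst lines minus 3 bone marrow lines (x axis, point, with the standard error as a bar), in rows by structural family. The points scatter around 0, with Col5a3 lowest at -2.75 and Col22a1 highest at 2.66.

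Genes that act on collagen chains were read from lists chosen for their role. The type IV chains, given for comparison, went the other way from most collagens described here. Of 4 tested, 3 were higher in the stem cell lines, against 24.7% of all genes, and Col4a5 was lower (-0.77 ± 0.19). The higher chains were Col4a1 (4.11-fold, 2.04 ± 0.19), Col4a2 (4.40-fold, 2.14 ± 0.38) and Col4a3 (at least 9.48-fold). Col4a3 passed the filter only through stem cell lines. Of 9 tested genes for propeptide cleavage and crosslinking, 6 were lower in the stem cell lines, against 22.5% of all genes, and none was higher. Loxl1, which crosslinks collagen and elastin, was 2112-fold lower (-11.04 ± 0.86, adjusted p = 0.000195). Loxl3 of the same family was 5.27-fold higher in blastocyst than in bone marrow lines (2.40 ± 0.44, adjusted p = 0.0143). It was well above background on only 3 of the 6 bone marrow arrays. Of the bone marrow lines only CL19 shared slides with the blastocyst lines, and the genes of these lists were not followed through the alternatives.

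Folding and modification enzymes were mixed. Of 18 tested, 7 were higher in the stem cell lines, against 24.7% of all genes. Another 4 were lower, near the 22.5% of all genes, and 7 were not called. P4ha3, a subunit of the prolyl 4-hydroxylase that stabilises the helix, was not above background on any stem cell array, a drop of at least 130-fold. It passed the filter only through RClone-2. P3h2, a prolyl 3-hydroxylase, was 77.6-fold higher (6.28 ± 0.59, adjusted p = 0.000418). Fkbp10, a chaperone of type I procollagen, was 3.68-fold higher in blastocyst than in bone marrow lines (1.88 ± 0.23, adjusted p = 0.00637). Colgalt2, which adds galactose to collagen, was 1.56-fold lower in blastocyst than in bone marrow lines (-0.64 ± 0.17, adjusted p = 0.034). The limit from the slides given for Loxl3 holds for Fkbp10 and Colgalt2 too.

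Of the fibril-associated proteoglycans, 5 of 10 passed the filter. In the stem cell lines 4 fell, against 22.5% of all genes, led by Bgn, which codes for biglycan (-6.60 ± 0.19, 97.3-fold). Apart from Bgn, the genes that fell passed the filter only through RClone-2, so their fall was in part set by it. The collagen receptors had 8 of 11 genes tested, with 4 lower, against 22.5% of all genes, and 1 higher, against 24.7%. Ddr2, a receptor tyrosine kinase for fibrillar collagen, fell at least 134-fold. Itga2, the integrin alpha-2 chain that binds collagen, was at least 51.1-fold higher (7.07 ± 0.23). Ddr2 and most of the other lower receptors passed the filter only through RClone-2, and Itga2 only through stem cell lines. None of the 8 receptors passed between blastocyst and bone marrow lines, where 32.8% of all genes did.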

How the data were processed

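Per the labels' protocols, total RNA (1 µg) and 10 viral control transcripts were Cy3-labelled together. Per the file headers, the authors extracted spots with Agilent Feature Extraction 10.7.3.1 on build rn4. The deposited scanner tables hold the signal as an intensity and flags of 0 or 1 as other values, and the deposited series table holds log2 values that were not used in a test. Signals were put on the log2 scale, minus the array's 75th percentile, without control and outlier spots, and arrays A and B were averaged per line. The filter required a line with both of its arrays well above background, and each gene was read from its brightest probe. Names outside the collagens were updated through RefSeq (GRCr8), in which 20735 of 41012 probes matched. The 7 line means entered limma 3.58.1 under R 4.3.3 (3 origins, 4 residual degrees of freedom). The single mesenchymal line borrows the spread of the other lines. Where a group was not well above background on any array, the fold is an approximate bound, with each array's dimmest detected signal in its place.

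The members and gene lists were chosen with earlier results of these data known. Array values are given for the fibril-forming chains of types I, III, V and XI and for called genes among the 6 largest differences in either direction of a contrast. Of each list of other genes, up to 4 are named, the largest called differences. Alternatives were normexp correction, other scalings, filters, probe choices, slide and block terms, and leaving out lines or arrays. Fits within slides were added after seeing the data. The script's fit was tested on simulated data. Figures were drawn with matplotlib.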

Additional observations from a re-analysis of the deposited data

Results flagged for a closer look

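In 3 of the 25 tested genes, 1 of the 6 stem cell lines lay farther from its nearest neighbour than Dixon's critical value allows, and in each it was Wk8 at the high end. The mean level of Wk8 was -3.72 for Col6a1, where the next line had -7.44. The other stem cell lines were not well above background for Col6a1, so the size of that gap rests on background signal. The mean level of Wk8 was -2.26 for Col6a2, where the next line had -4.01. It was -2.50 for Col15a1, where the next line had -4.69. Of all genes tested, 5.32% had such a gap and 1.69% had it with Wk8 highest, against 3 of 25, or 12%, here. Chance gives about 1 such gap in 20 groups, and genes of one line share their arrays. The cause was not tested, since Wk8 is the only Wistar-Kyoto line.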

How the results depend on the processing

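Over the alternatives that tested the same 25 genes, 16 to 22 were called between stem cell lines and the mesenchymal line (main 22), where 23.5% to 53.8% of all genes were. For blastocyst lines against it this was 16 to 23 (main 23), with 22.0% to 56.0% of all genes, and for bone marrow lines 14 to 20 (main 18), with 23.2% to 53.1%. A filter on detection on 7 arrays tested 19 genes and called 17, 18 and 13, where 47%, 48.3% and 46.2% of all genes were called. No filter tested 28 and called 20, 23 and 17, where 32.4%, 34.2% and 31.4% of all genes were called. The 7 calls between blastocyst and bone marrow lines (32.8% of all genes) became 2 with normexp, where 5.02% of all genes were called, and 0, with 0 of all genes, when the slide pair was a covariate and within slides 1 and 3 (6 at an unadjusted p under 0.05 in both), and leaving out a line or array set gave 2 to 7, with 3 without Fi1 or without RMAPC-1 array A, and 2 without 3C3, without RMAPC-1 or without all A arrays. In these fits without a line or array set, 10.4% to 33.7% of all genes were called between blastocyst and bone marrow lines. With the arrays as samples, line as a random block and the replicate block for A and B, the counts were 21, 22, 17 and 10 in the same order. Of all genes, 53.3%, 54.5%, 52.5% and 41.4% were then called. The labels do not say that a letter marks a shared batch. By the barcodes in the file headers, the A arrays were on slides 1 and 2 and the B arrays on slides 3 and 4. Of 70 called differences, 45 of genes named for their size or as fibril-forming chains were followed through the 22 to 24 alternatives that tested each. Of these, 29 kept call and direction, 16 lost the call in at least 1 and 2 changed sign. Col23a1 between blastocyst and bone marrow lines became 0.50 with the mean of its probes and 1.63 with its second probe, and Col9a1 became 0.02 without scaling. The causes were not tested. Signals at background limit the size of the differences of Col2a1, Col3a1, Col5a2, Col6a1, Col7a1, Col8a1, Col8a2, Col9a3, Col10a1, Col11a2, Col12a1, Col20a1, Col22a1 and Col27a1.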
